A study of Homo sapiens with 6 samples.

Results

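Inositol and organic osmolyte handling was examined through 7 genes of the 61541 Ensembl genes in the count table, SLC5A11, SLC5A3, SLC2A13, SLC6A6, ISYNA1, IMPA1 and IMPA2, each matched by its symbol to a single gene identifier. SLC5A11 was chosen by its measured change between the conditions compared here, so that its values are given as a description without a test. The other 6 genes were added for their roles, with earlier results of the same comparison known. All 7 had enough counts to be tested. RNA-seq was done on 6 libraries from HepG2 cells expressing luciferases, a human hepatoblastoma line whose artificial chromosome carries SLR3 luciferase driven by antioxidant response elements and a thymidine kinase promoter and ELuc luciferase driven by that promoter alone. Sedanolide, a phthalide, was given at 100 μM for 24 h to the cells of 3 libraries, and the other 3 were controls of the same time. All 6 libraries come from this 1 line, which carries both reporters in both conditions. The labels do not name the vehicle given to the controls, and the methods give dimethyl sulfoxide as the solvent of the stock. The labels do not say whether the replicates were separate cultures, so that p-values measure the spread between these libraries only.

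Myo-inositol is a cyclic polyol that cells use both as the head group of phosphatidylinositol lipids and as a compatible osmolyte, a solute that balances osmotic pressure without disturbing proteins. A cell obtains it by uptake across the plasma membrane, by synthesis from glucose 6-phosphate, or by recycling inositol phosphates. Taurine, a sulfur-containing amino acid that the liver conjugates to bile acids, serves as an osmolyte beside it. The transcription factor NFAT5 is known to drive the genes for uptake of both solutes in hypertonic medium.

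Total expected counts were between 16420258 and 26714853 per library. Levels are given as CPM, counts relative to the normalized library size. Component 1 of a principal component analysis of log2 CPM separated control 1, control 2 and sedanolide 3 from the remaining libraries (control 3, sedanolide 1 and sedanolide 2), a division that crosses the conditions and for which the labels give no batch. Mitochondrial genes held 1.43% to 2.15% of the counts in the first set and 4.24% to 5.22% in the second. Both sets are therefore shown beside each gene, and the part of mitochondrial RNA in the results was not tested. All 6 hepatocyte markers of the cell type check were tested and 0 were called, where 0.674% of all rows were. They summed to 15564.6 to 25491.3 CPM in control and 12184.1 to 19664.7 CPM in sedanolide libraries, with AFP the largest part in each library. ALB and TTR were lower in every sedanolide library than in every control (log2 -0.43 and -0.53, adjusted p = 0.241 and 0.133 in edgeR's quasi-likelihood test). Among all rows tested, 9.66% had this order. For the other markers of this list the conditions overlapped. Of 5 markers of kidney tubule, a site where SLC5A11 is known to act, UMOD and SLC12A1 had 0 counts in all libraries, and only CUBN had enough counts to be tested. Of 5 markers of small intestine, LCT and SI had 0 counts in all libraries and FABP2 alone was tested. The kidney list summed to 20 to 27.1 CPM in control and 16.3 to 29.5 CPM in sedanolide libraries, nearly all of it CUBN. The intestinal list summed to 2.77 to 3.73 and 2.82 to 3.21 CPM. Of the blood and fibroblast markers, 3 genes each, none was above 0.182 CPM in any library.

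SLC5A11 encodes the sodium/myo-inositol cotransporter SMIT2, which also carries the isomer D-chiro-inositol. The gene (ENSG00000158865) lies on the plus strand of chromosome 16 of GRCh38 from 24845841 to 24911628 and has 3415 bases of merged exons in GENCODE 44. The control libraries held 43, 37 and 60 counts of it, and the sedanolide libraries held 424, 564 and 290 (replicates 1 to 3 in order, here and throughout). Scaled for library size and composition, these were 2.61, 1.57 and 3.39 CPM in the control libraries and 22.8, 21.8 and 11.5 CPM in the sedanolide libraries. The groups did not overlap, and the lowest sedanolide library stood 3.39-fold above the highest control library. The mean was 2.52 ± 0.915 CPM in control and 18.7 ± 6.25 CPM after sedanolide (SD, n = 3), and the fitted log2 fold change was 2.90 with a standard error (SE) of 0.369, or 7.48-fold. In RNA from many cells together, more cells expressing the gene and more RNA per cell cannot be told apart. By fitted log2 fold change, SLC5A11 stood at rank 4 of the 14104 rows tested (14102 genes and both reporters).

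The spread of SLC5A11 within each condition was larger than counting alone would give. The coefficient of variation between libraries was 36.3% in control and 33.4% in sedanolide-treated cells, against counting errors of 12.9% to 16.4% and 4.21% to 5.87%, which cover counting only. For the lowest library, control 2, the exact 95% Poisson interval around 37 counts was 26.1 to 51.0. The place of replicate 3 in each condition followed the division on component 1. The rest of the spread did not, since controls 1 and 2 (2.61 and 1.57 CPM) lie in the same set. They were further apart than control 1 and control 3 (3.39 CPM). Control 3 was 1.63-fold above the mean of controls 1 and 2, and sedanolide 3 was at 0.516 of the mean of sedanolide 1 and 2. Within the set that holds control 1, control 2 and sedanolide 3, SLC5A11 was 5.51-fold higher in the sedanolide library, and within the other set it was 6.57-fold higher in the sedanolide libraries, log2 ratios of 2.46 and 2.72. With the set as a term in the fit, SLC5A11 had 2.61 on the log2 scale (SE 0.175).

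**Figure D1:**
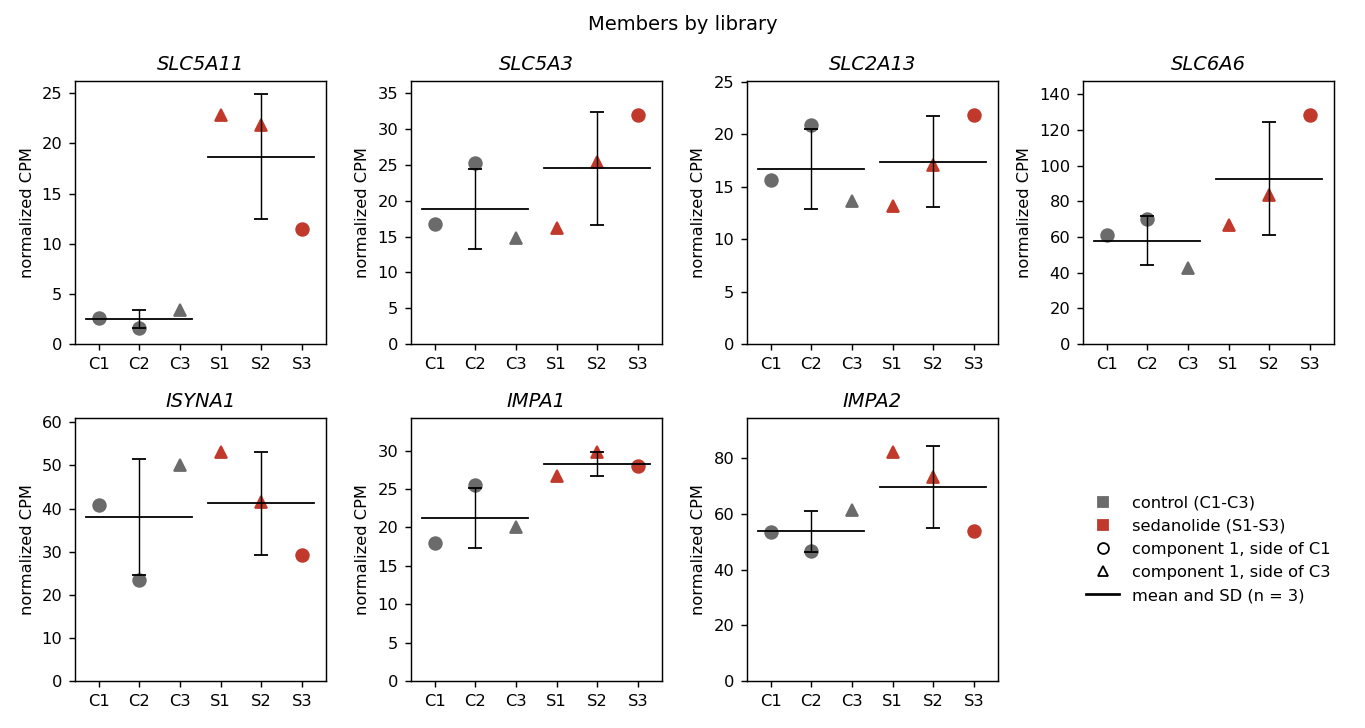
Normalized CPM of each of the 7 genes in the 6 libraries (C1 to C3, control; S1 to S3, sedanolide), with the mean and SD of each condition (n = 3) and with the marker shape giving the side of component 1. SLC5A11 and IMPA1 are the genes whose sedanolide libraries all lie above the control libraries, and SLC5A3, SLC2A13 and SLC6A6 are lowest in C3 among controls and highest in S3 among sedanolide libraries.

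Among the 6 genes other than SLC5A11, only IMPA1 had all 3 sedanolide libraries above all 3 control libraries. This pattern was shown by 8.69% of all rows tested in this direction and by 18.3% in either direction. SLC5A11 had it as well but was chosen by its change, so that it is not counted against these shares. The threshold for a call was a false discovery rate of 0.05 and a fold change of 1.5, as in the methods of the study. Among all rows tested, 0.362% were higher at this threshold and 0.674% changed in either direction. Of the 6 genes other than SLC5A11, 0 were past it in edgeR's quasi-likelihood test, with 2 (SLC6A6 and IMPA1) at an unadjusted p-value under 0.05, which 11.9% of all rows reached. DESeq2 likewise called 0 of the 6, where it called 2.33% of all rows, with 2 of the 6 and 12.4% of all rows under 0.05. The fitted log2 fold changes of these 6 were all above 0, with a median of 0.37, where the median over all rows was 0.006 and 50.7% were above 0. When the fit also held the side of component 1, the median was 0.32 and 5 of the 6 were above 0.

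Neither of the other inositol carriers passed the threshold. SLC5A3 encodes SMIT1, the sodium/myo-inositol cotransporter whose gene is known to respond to hypertonic medium. The gene (ENSG00000198743) lies on chromosome 21 from 34073578 to 34106260, on the plus strand. Control libraries were at 16.7, 25.2 and 14.8 CPM and sedanolide libraries at 16.2, 25.4 and 31.9 CPM. The groups overlapped, with sedanolide 1 below control 1 and sedanolide 2 close to control 2. On the log2 scale the change was 0.38 (SE 0.295, adjusted p = 0.660), or 0.55 (SE 0.202, adjusted p = 0.171) with the side as a term. SLC5A3 shares 265 exon bases with MRPS6, a mitochondrial ribosomal protein gene on the same strand, with 72.8% as many counts as SLC5A3, so that the division of reads between them is uncertain. For MRPS6 itself the log2 change was 0.20 (adjusted p = 0.606).

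SLC2A13 encodes HMIT, which couples myo-inositol uptake to protons in place of sodium. The gene (ENSG00000151229, chromosome 12, 39755025 to 40106089, minus strand) was at 15.6, 20.9 and 13.6 CPM in the control libraries and at 13.2, 17.1 and 21.8 CPM in the sedanolide libraries. These ranges nearly coincide. The mean was 16.7 ± 3.80 CPM in control and 17.4 ± 4.30 CPM after sedanolide (SD, n = 3). The log2 change of 0.06 was within its SE of 0.234 (adjusted p = 0.940). SLC2A13 shares 70 exon bases with C12orf40 on the opposite strand.

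SLC6A6 encodes TauT, the sodium- and chloride-dependent carrier that brings taurine into the cell. The gene (ENSG00000131389, chromosome 3, 14402576 to 14489349, plus strand) was at 61.1, 70.1 and 42.8 CPM in the control libraries. In the sedanolide libraries SLC6A6 was at 66.6, 83.5 and 128.1 CPM. The groups overlapped only through sedanolide 1, which lay between controls 1 and 2. The change was 0.68 on the log2 scale (SE 0.280, adjusted p = 0.404), so that SLC6A6 did not pass the threshold in the comparison by condition alone. Within the set of control 1, control 2 and sedanolide 3 it was 1.95-fold higher in the sedanolide library, and within the set of control 3, sedanolide 1 and sedanolide 2 it was 1.75-fold higher. In the fit with the side as a term, where 2.7% of all rows were past both thresholds, the change was 0.89 on the log2 scale (SE 0.117, adjusted p = 0.00404), past both thresholds. Over all 16 other settings the adjusted p of SLC6A6 was between 0.00404 and 0.921, and this was the only setting among them in which it was called. The side was read from the same libraries, so that this value depends on a division that the labels do not give. No other gene of the 6 was called with this term.

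**Figure D2:**
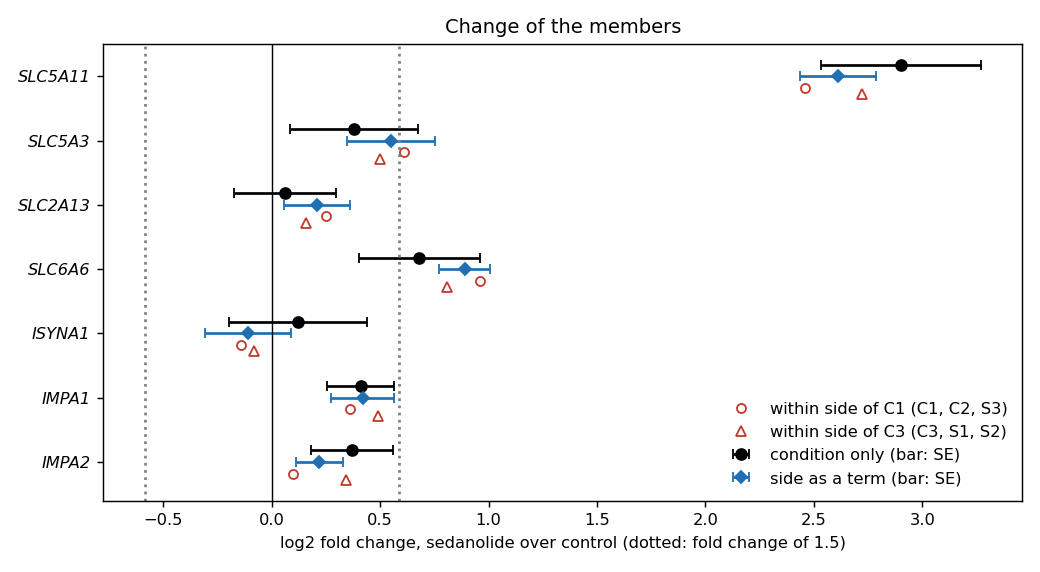
Log2 fold change of each of the 7 genes, sedanolide over control, from the fit by condition alone and from the fit that adds the side of component 1 (bars, SE), and the log2 ratio of mean CPM within each side. SLC5A11 stands between 2.46 and 2.90 in all 4 estimates, SLC6A6 between 0.68 and 0.96, and ISYNA1 changes sign.

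The enzymes that make free inositol in the cell were ISYNA1, IMPA1 and IMPA2. ISYNA1 encodes inositol-3-phosphate synthase, which turns glucose 6-phosphate into inositol 3-phosphate and commits glucose to inositol synthesis. The gene (ENSG00000105655, chromosome 19, 18434388 to 18438167, minus strand) was at 40.8, 23.4 and 50.0 CPM in the control libraries and at 53.1, 41.5 and 29.1 CPM in the sedanolide libraries. Every sedanolide library but sedanolide 1 lay within the control range. The log2 change was 0.12 (SE 0.317, adjusted p = 0.911). It turned to -0.11 (SE 0.197, adjusted p = 0.828) with the side as a term and to -0.06 in the table of log2(TPM + 1), where TPM is a level scaled for transcript length. ISYNA1 shares 175 exon bases with SSBP4 on the opposite strand.

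IMPA1 and IMPA2 encode the inositol monophosphatases, lithium-sensitive enzymes that release free inositol from inositol monophosphates and so serve both synthesis and recycling. IMPA1 (ENSG00000133731, chromosome 8, 81656914 to 81686331, minus strand) was at 18, 25.5 and 20.1 CPM in the control libraries. The sedanolide libraries were at 26.7, 29.8 and 28 CPM, each above the highest control. The gap was small, since sedanolide 1 lay close above control 2. The means were 21.2 ± 3.87 and 28.2 ± 1.56 CPM (SD, n = 3), and the change of 0.41 on the log2 scale (SE 0.155, adjusted p = 0.364) was below the fold change of the threshold. Its log2 ratio was 0.36 and 0.49 within the sets, and of the 7 genes IMPA1 had the smallest spread among sedanolide libraries relative to its mean. In log2(TPM + 1) the difference was 0.19, and there the conditions overlapped.

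IMPA2 (ENSG00000141401, chromosome 18, 11981025 to 12030877, plus strand) was at 53.4, 46.6 and 61.4 CPM in the control libraries and at 82.2, 73.1 and 53.7 CPM in the sedanolide libraries. Sedanolide 1 and 2 lay above all controls, and sedanolide 3 lay among them. The change was 0.37 on the log2 scale (SE 0.188, adjusted p = 0.489). Within the set of control 1, control 2 and sedanolide 3 the log2 ratio was 0.10, and within the other set it was 0.34.

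All of the 7 genes but IMPA1 fell into 2 orders within the conditions. SLC5A3, SLC2A13 and SLC6A6, all of them carriers, had their lowest control value in control 3 and their highest sedanolide value in sedanolide 3, and control 3 stood at 0.652 to 0.742 of the mean of the other controls. SLC5A11, ISYNA1 and IMPA2 had the reverse order, with control 3 the highest control, at 1.23-fold to 1.63-fold of the mean of the others, and sedanolide 3 the lowest sedanolide library. IMPA1 followed neither order. SLC5A11 thus ran against the other carriers between libraries of a condition. These orders follow the sides of component 1, which held 56.1% of the variance, and the mitochondrial share, whose part was not tested. They concern the place of replicate 3 only. Libraries on the same side differed too, as controls 1 and 2 did for SLC5A3 and ISYNA1. The share of all genes with either order was not counted.

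Levels of different genes were compared in the authors' TPM. The table of log2(TPM + 1) holds 6 of the 7 genes, and SLC5A3 is not placed here. In control cells IMPA2 was highest with 64.1 ± 4.25 TPM, followed by ISYNA1 with 46.8 ± 9.69 TPM, and the ranges of the 2 enzymes did not overlap. SLC6A6 (15.8 ± 4.57 TPM) and IMPA1 (15.1 ± 3.79 TPM) did not differ beyond their spread. SLC2A13 had 3.54 ± 1.02 TPM and SLC5A11 had 1.91 ± 0.833 TPM (SD, n = 3), and their ranges touched, since SLC5A11 in control 3 (2.78 TPM) was above SLC2A13 in control 3 (2.66 TPM). In sedanolide-treated cells SLC5A11 was at 14.8, 15.3 and 8.56 TPM, all above SLC2A13, which was at 2.94, 3.50 and 4.68 TPM. It thereby changed places with SLC2A13 and came to lie under IMPA1, which was at 15.6, 17.3 and 18.6 TPM. The places of the other 4 genes were the same in both conditions. The difference of SLC5A11 in log2(TPM + 1) was 2.26, less than the 2.90 in counts. The added 1 reduces the change of a gene with so few TPM in control cells, and with 0.1 in its place the difference was 2.73.

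**Figure D3:**
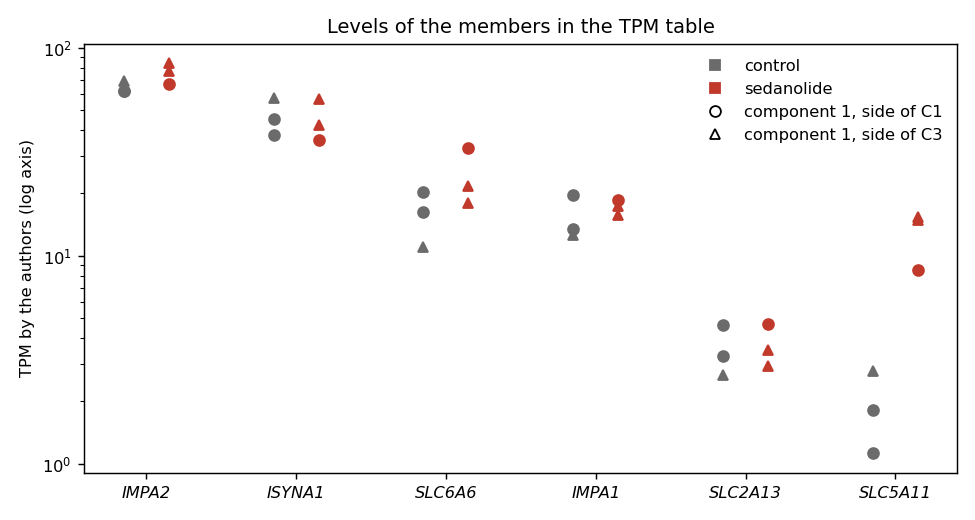
TPM by the authors, recovered from log2(TPM + 1), for 6 of the 7 genes in control and sedanolide libraries on a log axis, ordered by the control mean. SLC5A11 is lowest in control cells (1.12 to 2.78 TPM) and lies between SLC2A13 and IMPA1 in sedanolide-treated cells (8.56 to 15.3 TPM).

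SLC5A11 was compared with its relatives in the SLC5 family of sodium-coupled carriers. Of 10 relatives other than SLC5A3, only 3 had enough counts to be tested, and SLC5A1, SLC5A4, SLC5A7 and SLC5A8 had 0 counts in all libraries. None of the 3 passed the threshold, which 0.674% of all rows did. SLC5A9, a sodium-dependent sugar carrier, was at 25, 21.9 and 21.5 CPM in control libraries and at 14.2, 13.9 and 13.7 CPM in sedanolide libraries. All sedanolide libraries lay below all controls, opposite to SLC5A11, an order that 9.66% of all rows tested had. The log2 change was -0.71 (SE 0.120, adjusted p = 0.0622), which missed the threshold. Across the 16 other settings it was between -0.75 and -0.65, with adjusted p-values from 7.22e-05 to 0.645. SLC5A9 was called with the side as a term (adjusted p = 0.0118), with DESeq2 (7.22e-05) and with scaling by library size only (0.0443). SLC5A2, the renal glucose carrier SGLT2, was lower in every sedanolide library as well but at 0.579 to 2.36 CPM, with a log2 change of -1.24 (SE 0.367, adjusted p = 0.253). SLC5A6, the multivitamin carrier, had a log2 change of 0.24 (adjusted p = 0.562).

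The wider pathway was described with 6 lists of 89 genes in all, drawn up by function. Of these, 71 had enough counts and 0 were past both thresholds in edgeR's quasi-likelihood test, with 11 of the 71 and 11.9% of all rows at an unadjusted p-value under 0.05. DESeq2 called 2 of the 71, with SLC5A9 as lower, and 2.33% of all rows. Of the 71 genes, 29 had log2 fold changes above 0 and 42 below, with a median of -0.029. In 7 of the 71 the sedanolide libraries were all higher and in 8 all lower, against 8.69% and 9.66% of all rows, so that both counts were near the background.

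The genes that carry inositol on into lipids were all tested, 17 of 17, with log2 fold changes between -0.35 and 0.36 and a median of -0.029. PIP4K2A, a kinase that acts on phosphatidylinositol 5-phosphate, had the highest value among those whose libraries did not overlap (0.36, SE 0.143, adjusted p = 0.388). PI4K2A, which makes phosphatidylinositol 4-phosphate, had the lowest (-0.35, SE 0.110, adjusted p = 0.276), at 42.0 ± 2.86 CPM in control and 33.0 ± 1.17 CPM after sedanolide (SD, n = 3). CDIPT, the enzyme that joins inositol to the lipid, had a log2 change of -0.08 (adjusted p = 0.810). Of 23 genes of inositol phosphates and inositol breakdown, 20 were tested, with log2 fold changes between -0.33 and 0.45 and a median of -0.001. In all 20 the conditions overlapped, where 18.3% of all rows had conditions that did not overlap. MIOX, the oxygenase that opens the inositol ring, was at 1.44 ± 0.188 CPM in control and 1.69 ± 0.426 CPM after sedanolide (SD, n = 3), with an adjusted p of 0.765.

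The list of other organic osmolytes, with 15 genes tested of 18, had a median log2 fold change of -0.017. It also holds genes that neither make, carry nor break down an osmolyte, among them NFAT5 and S100A4. NFAT5 itself was at 101.8, 142.4 and 81.8 CPM in control libraries and at 53.7, 83.1 and 125.1 CPM in sedanolide libraries, a log2 change of -0.32 (SE 0.330, adjusted p = 0.742). AKR1B1, which makes the osmolyte sorbitol from glucose, had a log2 change of 0.07 (SE 0.110, adjusted p = 0.838). BHMT, which uses the osmolyte betaine as a methyl donor, had the highest value among those whose libraries did not overlap (0.36, adjusted p = 0.364), and S100A4, a calcium-binding protein, the lowest (-0.65, adjusted p = 0.353, at 0.951 to 1.87 CPM).

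For taurine, 8 of 10 genes were tested, with a median log2 fold change of -0.104. CBS, which begins the route from homocysteine to cysteine and taurine, was higher in all sedanolide libraries, at 70.5 ± 11.5 CPM in control and 94.6 ± 10.9 CPM after sedanolide (SD, n = 3), with an adjusted p of 0.363. BAAT, which joins taurine or glycine to bile acids, was at 2.73, 2.12 and 3.62 CPM in control libraries and at 1.61, 1.16 and 1.27 CPM in sedanolide libraries. All sedanolide libraries lay below all controls, with a log2 change of -1.07 (SE 0.269, adjusted p = 0.182). BAAT was called with the side as a term (-1.18, adjusted p = 0.0320) and in none of the rest of its 14 other settings, in which the adjusted p reached 0.773. Of the genes of the volume-regulated anion channel and of the sodium pump, 8 of 11 were tested, with a median log2 fold change of 0.095. Not all of them lay near this median, and a gene that the naming rule gives is not reported here. SLC5A6, CDIPT, MIOX, NFAT5 and AKR1B1 were named for their roles after their values were seen.

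**Figure D4:**
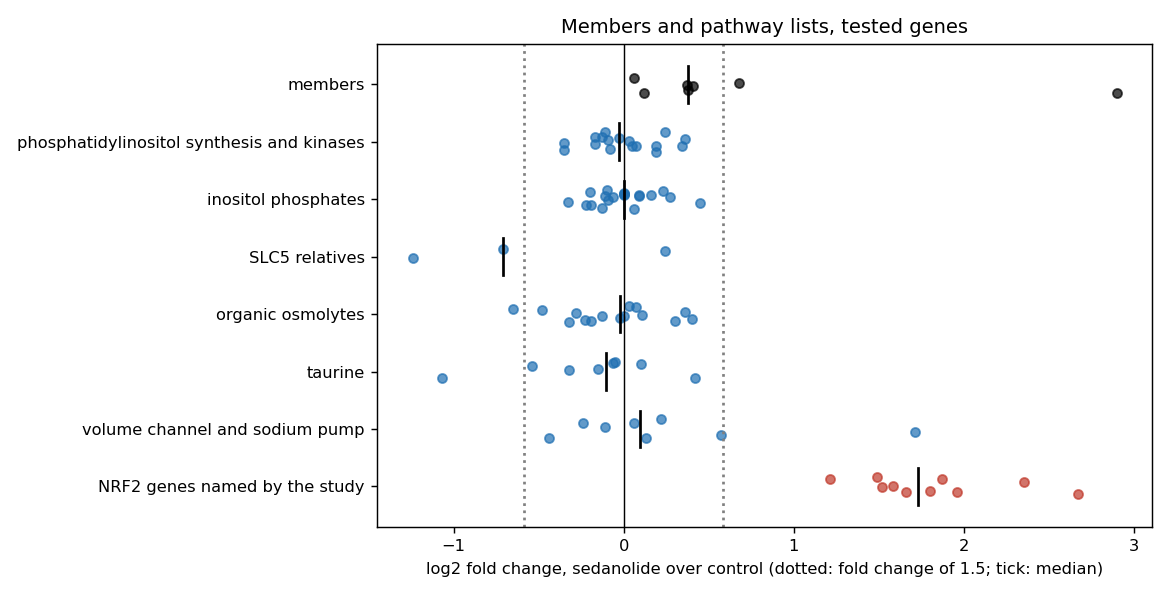
Log2 fold change, sedanolide over control, of the 7 genes, of the tested genes in 6 pathway lists and of 10 NRF2 genes that the study names beside SLC5A11, with the median of each row as a tick and a fold change of 1.5 as dotted lines. SLC5A11 lies at 2.90 above all genes of the NRF2 row (1.21 to 2.67), and the pathway rows have medians from -0.707 (SLC5 relatives, 3 genes) to 0.095.

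Of the 3 nearest protein-coding genes on each side of SLC5A11 on chromosome 16, 5 were tested. None was called, where 0.674% of all rows were. The nearest were ARHGAP17, 7.8 kb beyond its 3′ end, and TNRC6A, 18.2 kb before its 5′ end. ARHGAP17, which encodes a GTPase-activating protein, was at 81.1 ± 11.3 CPM in control and 83.1 ± 23.8 CPM after sedanolide, and TNRC6A, a protein of microRNA silencing, was at 66.7 ± 10.0 and 72.5 ± 7.47 CPM (SD, n = 3). Their log2 fold changes were 0.04 and 0.12 (adjusted p = 0.959 and 0.784). Of the next genes outward, RBBP6 and LCMT1 had log2 fold changes of 0.08 and 0.13 (adjusted p = 0.902 and 0.822), and the water channel gene AQP8 had 0.34 (adjusted p = 0.730) at under 1 CPM. No counts of CACNG3 were found. The conditions overlapped in each of the 5 tested neighbors, and 18.3% of all rows had conditions that did not overlap. So few genes cannot be told from these shares.

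The study names SLC5A11 with 10 other genes downstream of NRF2, the transcription factor that drives antioxidant response elements. All were chosen on these libraries, so that the following is a description. The fitted log2 fold changes of the 10 were between 1.21 (NQO1) and 2.67 (PTGR1), all below the 2.90 of SLC5A11. The distance from PTGR1 was smaller than the SE of either gene (0.369 for SLC5A11, 0.286 for PTGR1). In the ratios between libraries of a condition SLC5A11 lay just outside the range of the 10, next to GSTA1. Its control counts carried counting errors of 12.9% to 16.4% per library. The ratio of sedanolide 3 to the mean of sedanolide 1 and 2 was 0.516 for SLC5A11 and between 0.580 (GSTA1) and 1.07 (GCLC) for the others. The ratio of control 3 to the mean of controls 1 and 2 was 1.63 for SLC5A11 and between 0.915 (TXNRD1) and 1.61 (GSTA1) for the others. GSTA1 and GSTA2 are near-identical copies, so that the division of reads between them is uncertain.

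The genes whose log2 CPM followed that of SLC5A11 most closely over the 6 libraries, among tested genes with a mean of at least 1 CPM, were GSTA1 (Pearson r = 0.9989), GEMIN5 (0.9982), ODC1 (0.9980), DDN-AS1 (0.9971) and TXN (0.9964). The 6 points share the difference between conditions that chose SLC5A11 and the division on component 1, and the values describe likeness only. GSTA1, a glutathione S-transferase, was at 22.7, 16.0 and 31.1 CPM in control and at 146.9, 129.0 and 79.9 CPM in sedanolide libraries. It had the same order of all 6 libraries as SLC5A11, with control 2 lowest and sedanolide 1 highest. TXN, which encodes thioredoxin, and ODC1, which encodes the first enzyme of polyamine synthesis, each had a log2 fold change of 0.82, against 2.35 for GSTA1, so that a like pattern did not go with a like size. GEMIN5, which binds small nuclear RNAs, and DDN-AS1, a noncoding RNA, had 0.52 and 0.62. Among the genes of inositol and osmolyte handling, the nearest to SLC5A11 was IMPA2 (r = 0.8308), and SLC2A13 had r = -0.1934.

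**Figure D5:**
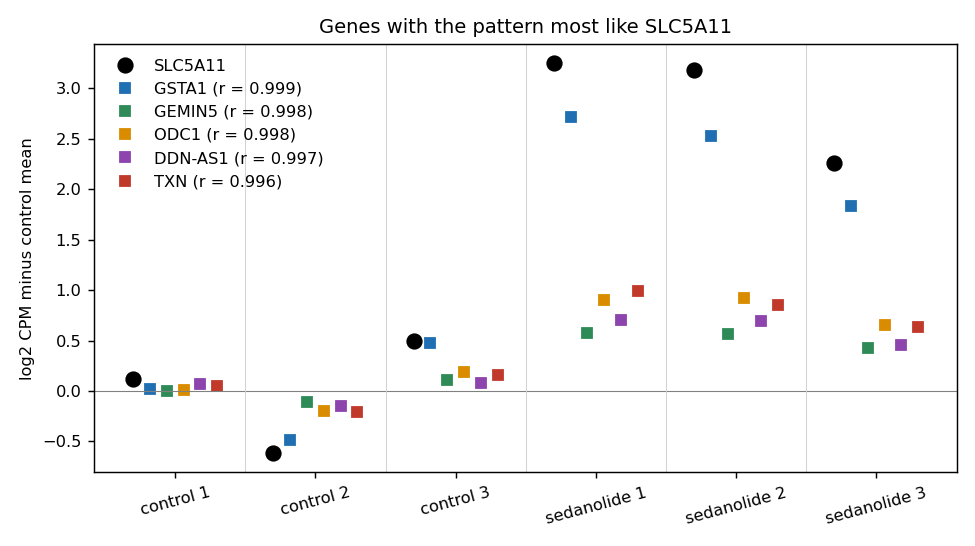
Log2 CPM minus the control mean in each of the 6 libraries for SLC5A11 and the 5 genes whose pattern over the libraries is most like it by Pearson r. In all 6 genes control 2 is the lowest control and sedanolide 3 the lowest sedanolide library, while the size of the change differs, from 0.52 (GEMIN5) to 2.90 (SLC5A11) in fitted log2 fold change.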

How the data were processed

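Polyadenylated RNA of 3 control and 3 sedanolide libraries was sequenced after directional library preparation. The authors processed the reads with FastQC, Trimmomatic, STAR (GRCh38) and RSEM, with versions and annotation release not given in the sources used here. The authors deposited expected counts per gene without normalization and a table of log2(TPM + 1) for 11006 rows, filtered by a rule not given in the sources used here. Whether RSEM was set to use the strand is not given in the sources used here.

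After rounding and the filterByExpr filter, the counts were scaled by TMM, and edgeR 4.0.16 (R 4.3.3) was used for quasi-likelihood tests (robust prior) with condition as the only term. An SE from edgeR is the absolute log2 fold change divided by the square root of the F statistic. It therefore restates that test, and for SLC5A11 it is a description only. The study called genes with DESeq2, which is an alternative here, and the thresholds follow its methods. Adjusted p-values are Benjamini-Hochberg over 14104 rows, and the threshold for calls was 0.05 for the FDR and 1.5 for the fold change. Alternatives used DESeq2 1.42.0, limma 3.58.1 on the log2 table as deposited or with a pseudocount of 0.1, other scalings, filters or priors, the replicate number or the side of component 1 as a term, and each library left out. The procedure was tested on simulated data. Symbols were matched for 61369 genes, and positions taken from GENCODE 44.

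The members, lists and alternatives were chosen with earlier results of these data known. Named beside the members were, of each pathway list, the genes past both thresholds and those with the highest and lowest log2 fold change among genes whose conditions did not overlap, the 3 nearest protein-coding genes on each side of SLC5A11, the 5 genes of most like pattern, the 10 NRF2 genes as ranges, and markers. Some genes that this rule names are not reported here. Counts within a condition differed by more than sampling noise, so that no library was a duplicate. Intervals cover counting error only.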

Additional observations from a re-analysis of the deposited data

How the results depend on the processing

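Of 16 other settings, the log2 fold change of SLC5A11 stayed within 0.56, the SD between replicates on the log2 scale, of its value in all but the log2(TPM + 1) table, where it was 2.26, and it was 2.63 to 3.19 with each library left out. The number of the other 6 genes past both thresholds was 0 in every setting but the side as a term, where it was 1. Of the pathway genes, 1 was called with library size only, 2 with the side as a term and 2 with DESeq2, against 0, and 0 in every other setting, including each fit with a library left out. Without control 1, without sedanolide 2 and with the replicate block, 0 of all rows were called, so that a 0 there says nothing about these genes. Without control 2, control 3 or sedanolide 1, 8, 29 and 13 of all rows were called. The log2 fold change of ISYNA1 turned to -0.11 with the side as a term, -0.06 and -0.07 in the log2(TPM + 1) table with a pseudocount of 1 and 0.1, and ranged from -0.14 to 0.36 with each library left out. That of SLC2A13 ranged from -0.14 to 0.25 with each library left out, and was -0.0017 without control 1. The cause was not tested.

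Over all rows, 51 were higher and 44 lower, against 79 and 79 without a filter, 151 and 230 with the side as a term, 130 and 198 with DESeq2, and 33 and 28 in the log2(TPM + 1) table, which holds fewer genes (33 and 35 with a pseudocount of 0.1). With each library left out, 0 to 66 were higher and 0 to 70 lower, with 0 called without control 1 or sedanolide 2 (1067 and 889 at an unadjusted p-value under 0.05). Deviations from the condition means were negatively correlated between same-numbered libraries (r = -0.133, -0.295 and -0.73). Each of these pairs lies on opposite sides of component 1, so that the values cannot tell whether a pair shared a culture or preparation. With the replicate block, edgeR called 0 rows (772 at an unadjusted p-value under 0.05), and SLC5A11 had a log2 fold change of 2.88. Depth limits the control values of SLC5A11, which rest on 37 to 60 counts.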
